A study of Mus musculus with 10 samples.

Results

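Genes of the homocysteine and folate cycles were followed in the hippocampus of Dp3Yah mice, a mouse model for Down syndrome. The 9 genes Cbs, Cth, Mtr, Mtrr, Shmt1, Slc19a1, Ftcd, Mat2a and Ahcy were listed for their known place in these cycles, and 7 of them were measured by a probe set that is annotated to a single gene, of 19939 genes in all. Ahcy had only probe sets shared with Gm4737, whose values are given apart and enter no count, and Mat2a is not analysed here. The 5 Dp3Yah mice carry a duplicated stretch of mouse chromosome 16 from Hspa13 to App, with only 2 complete copies of App itself, and the 5 control mice are littermates without it. All were 16-week-old males on a C57BL/6N background per the labels, while the methods describe backcrossing to C57BL/6J. RNA from both hippocampi of a mouse was hybridised to 1 Affymetrix Mouse Gene ST array. Values are RMA signals on the log2 scale, so that a difference of 1 is a doubling. The line rests on 1 engineered duplication, and in whole tissue fewer cells of a type and less RNA per cell cannot be told apart.

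Homocysteine is the branch point of sulphur amino acid metabolism. It is methylated back to methionine with a methyl group from folate or betaine. Alternatively, it is condensed with serine to cystathionine on the way to cysteine and glutathione. Methionine in turn is activated to S-adenosylmethionine, the methyl donor of most methyltransferases, which leaves homocysteine behind. The human genes CBS, SLC19A1 and FTCD lie on chromosome 21 and are therefore in extra copy in Down syndrome, where a lowered plasma homocysteine has long been known. In the mouse they map to chromosomes 17 and 10, outside the duplication, so that Dp3Yah and control mice have the same number of copies of each. The comparison of Dp3Yah with control mice therefore asked whether a duplication that holds none of these genes altered their transcripts.

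None of the 7 measured genes differed between Dp3Yah and control mice beyond the spread between mice. Their log2 changes (Dp3Yah minus control) lay between -0.09 (Slc19a1) and 0.08 (Shmt1), with 3 positive, 4 negative and a median of -0.02, against a median of -0.005 over all genes. Limma called 0 of the 7 at the 0.05 level after Benjamini-Hochberg adjustment over the whole table, where it called 0.015% of all genes; the smallest adjusted p among the 7 was 0.935. Unadjusted, 0 of the 7 fell under 0.05, against 5.08% of all genes (2.49% higher and 2.59% lower in Dp3Yah mice). The rank test used in the study passed 0 of the 7 and 4.59% of all genes. In 0 of the 7 did the groups fail to overlap, against 0.913% of all genes (0.522% higher and 0.391% lower). The 95% interval of each of the 7 changes lay within a 1.2-fold difference in either direction (log2 of 0.26), as it did for 88.3% of all genes, and 99.6% lay within 1.5-fold. For Slc19a1 this held for the brighter of its 2 probe sets. The interval of the dimmer one ran from -0.52 to -0.03.

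The same arrays registered the duplication itself. Limma called 3 genes, all higher in Dp3Yah mice and all inside the duplicated interval, namely Hspa13, Ncam2 and Mrpl39. The 13 measured genes of the interval that were listed for this comparison had a median log2 change of 0.38. Of these, 11 were higher with an unadjusted p under 0.05, as 2.49% of all genes were. Mrpl39, which encodes a protein of the mitochondrial ribosome, averaged 9.50 ± 0.089 in Dp3Yah and 9.03 ± 0.026 in control mice (SD, n = 5 each).

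**Figure D1:**
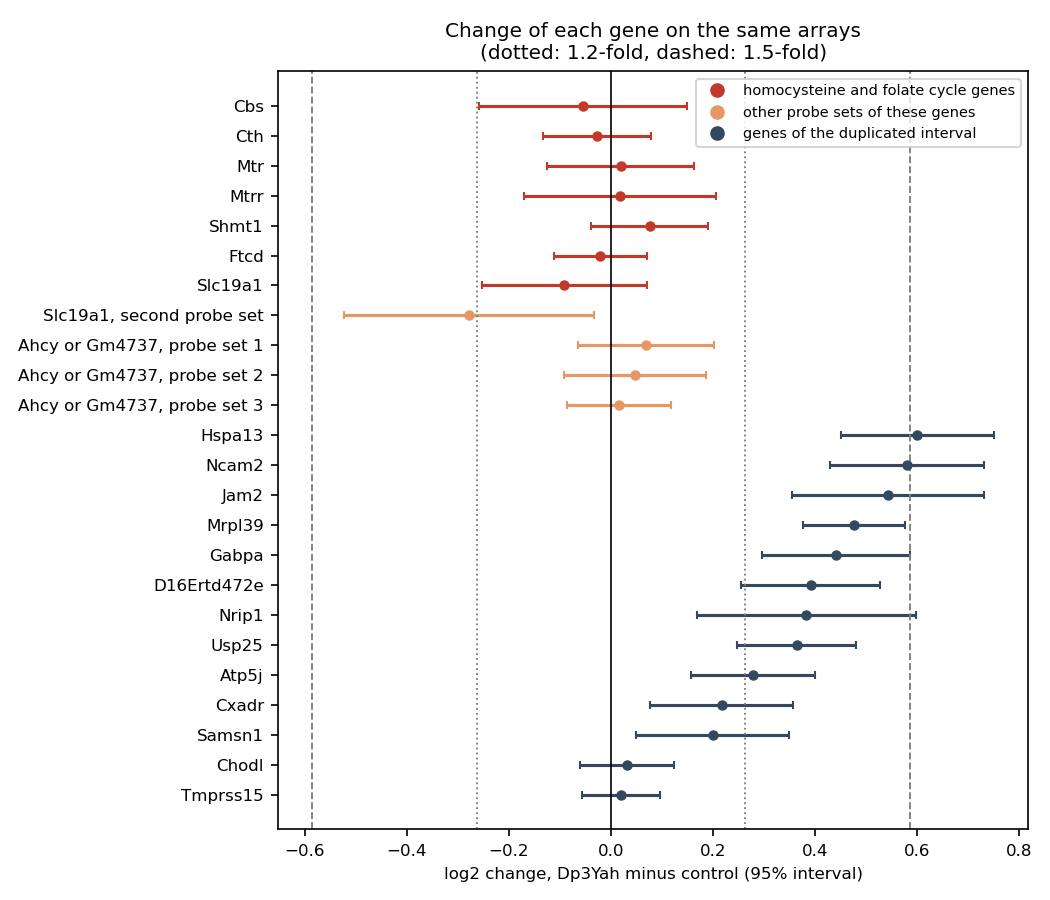
Log2 change (Dp3Yah minus control, horizontal axis) with its 95% interval for the 7 homocysteine and folate cycle genes, for further probe sets of Slc19a1 and Ahcy, and for 13 genes of the duplicated interval. The 7 intervals lie between the dotted lines at 1.2-fold, while changes in the interval run up to 0.60 (Hspa13). The interval of the second Slc19a1 probe set passes the lower dotted line (-0.52 to -0.03).

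Cbs encodes cystathionine beta-synthase, the enzyme that commits homocysteine to transsulfuration, and in the brain it is known mainly from astrocytes. Its gene spans 31612623 to 31637233 on chromosome 17 of GRCm38.p6. Cbs was at 7.39, 7.31, 7.13, 7.50 and 7.42 in Dp3Yah mice, against 7.41, 7.11, 7.36, 7.67 and 7.47 in controls (log2 signal, replicates 1 to 5 of each group). The highest and the lowest of the 10 mice were both controls, and every Dp3Yah mouse lay within the range of the controls. The mean was 7.35 ± 0.140 in Dp3Yah and 7.40 ± 0.205 in control mice (SD, n = 5 each). The difference was -0.05 (SE 0.094, 95% interval -0.26 to 0.15, limma adjusted p = 0.97), or 0.963-fold with an interval of 0.836 to 1.11. The interval leaves room for a modest change either way and does not reach the log2 of 1.5 (0.58).

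The spread of Cbs between mice was wider than the difference between the groups. Its SD within groups, 0.175, lay at the 93.5th percentile of all genes, whose median was 0.087. From the lowest mouse to the highest, the Cbs signal spanned 1.48-fold. The sign of the group difference rested on single mice. It was 0.001 without Dp3Yah replicate 3, the lowest of its group, and 0.01 without control replicate 4, the highest mouse. Without control replicate 2, the lowest mouse, it was -0.13, with an unadjusted p of 0.136 (limma adjusted p = 0.792). Astrocyte markers, a list of 11 genes all measured, averaged 10.13 to 10.24 in Dp3Yah and 10.06 to 10.22 in control mice, and the ranges overlapped.

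**Figure D2:**
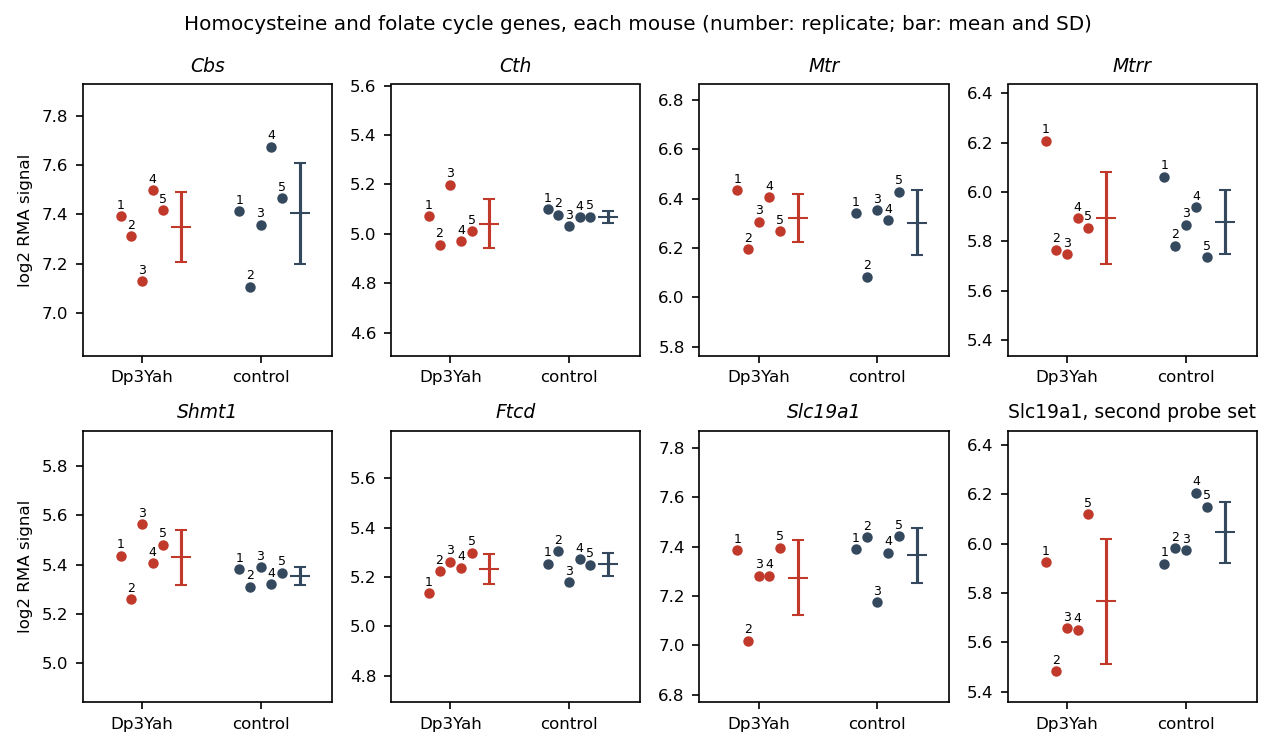
Log2 RMA signal (vertical axis, the same span in every panel) of each homocysteine and folate cycle gene, and of the second probe set of Slc19a1, in the 5 Dp3Yah and 5 control mice, numbered by replicate, with the group mean and SD as a bar. The groups overlap in every panel. For Cbs, control replicates 2 (7.11) and 4 (7.67) enclose all Dp3Yah mice.

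Genes whose signal followed Cbs most closely from mouse to mouse were sought among the other 9968 genes above the median level, by Pearson's r over the 10 mice of the deviations from the group means. The first 5 were Nrbf2 (r = 0.97), Gna12 (0.96), Map3k11 (0.94), Mif4gd (0.93) and Slc15a2 (0.93), with Spearman's rho between 0.92 and 0.99. They were picked as the highest of many, so no p is given. Nrbf2 encodes an autophagy factor, Gna12 a G protein alpha subunit, Map3k11 a mixed-lineage kinase and Slc15a2 a peptide transporter.

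These 5 genes shared with Cbs the 2 lowest mice after the group mean was removed, Dp3Yah replicate 3 and control replicate 2. Gna12, for example, was at 9.68, 9.66, 9.42, 9.82 and 9.77 in Dp3Yah mice, against 9.76, 9.45, 9.71, 9.89 and 9.82 in controls. Without these 2 mice r was 0.93 for Nrbf2, 0.92 for Gna12, 0.84 for Map3k11, 0.93 for Mif4gd and 0.81 for Slc15a2. The same 2 mice were also the lowest on the first principal component of the within-group deviations of all genes, at -9.95 and -10.02. The mice highest for Cbs in each group, Dp3Yah replicate 4 and control replicate 4, were negative on it too, at -6.14 and -2.55. The farthest mouse, Dp3Yah replicate 2 at 16.4, had a Cbs deviation of only -0.04. The sign of a component is arbitrary. The part of this component in the Cbs signal was not tested. None of the 5 genes passed between the groups. Slc15a2 came nearest, with a log2 change of 0.21 (unadjusted p = 0.0527, limma adjusted p = 0.922).

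**Figure D3:**
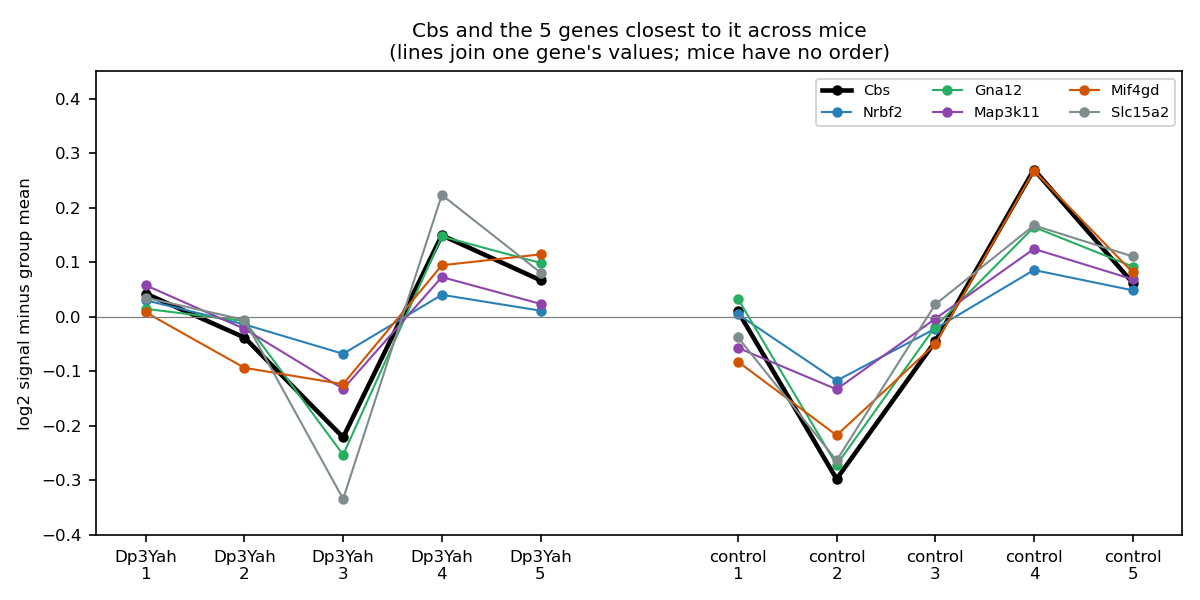
Log2 signal minus the group mean (vertical axis) of Cbs (black) and of the 5 genes with the highest r to it, for each mouse; lines join the values of a gene and the mice have no order. All 6 genes are lowest within their group in Dp3Yah replicate 3 and in control replicate 2.

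Cth encodes cystathionine gamma-lyase, which cleaves the product of Cbs to cysteine and is known above all from liver. It lies at 157894248 to 157925081 on chromosome 3. Its probe set was below the median signal of all genes, and no detection call was used to tell such dim probe sets from background. Cth was at 5.07, 4.96, 5.20, 4.97 and 5.01 in Dp3Yah mice, against 5.10, 5.08, 5.03, 5.07 and 5.07 in controls. Dp3Yah mice were therefore both the highest and the lowest, around closely grouped controls, and the difference was -0.03 (SE 0.048, limma adjusted p = 0.97).

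The methionine synthase Mtr transfers the methyl group of folate to homocysteine, with cobalamin as cofactor, and Mtrr reactivates it. Both lie on chromosome 13, Mtr at 12181331 to 12258199 and Mtrr at 68560780 to 68582169. Mtr was at 6.43, 6.20, 6.31, 6.41 and 6.27 in Dp3Yah mice, against 6.34, 6.08, 6.35, 6.31 and 6.43 in controls. Only Dp3Yah replicate 1 lay narrowly above every control, and the mean difference was 0.02 (SE 0.066, 95% interval -0.13 to 0.16, limma adjusted p = 0.985).

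Mtrr was at 6.21, 5.77, 5.75, 5.89 and 5.86 in Dp3Yah mice, against 6.06, 5.78, 5.87, 5.94 and 5.74 in controls. Replicate 1 was the highest mouse of either group, and the remaining ranges nearly coincided. The difference was 0.02 (SE 0.087, limma adjusted p = 0.991), and it was -0.06 without Dp3Yah replicate 1. The SD of Mtrr within groups, 0.160, lay at the 91st percentile of all genes, and at the 95.5th of genes below the median level. Both Mtr and Mtrr were below the median signal.

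Shmt1, the cytosolic serine hydroxymethyltransferase that loads folate with a carbon unit from serine, had the largest positive change of the 7. It lies at 60788897 to 60811265 on chromosome 11. Shmt1 was at 5.44, 5.26, 5.56, 5.41 and 5.48 in Dp3Yah mice, against 5.38, 5.31, 5.39, 5.32 and 5.37 in controls. Of the Dp3Yah mice 4 lay above every control and the fifth, replicate 2, below every control. The difference was 0.08 (SE 0.053, 95% interval -0.04 to 0.19, limma adjusted p = 0.935), and 0.12 without replicate 2 (unadjusted p = 0.0199, limma adjusted p = 0.8). Its probe set too was below the median signal.

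Ftcd encodes formimidoyltransferase cyclodeaminase, which feeds the breakdown of histidine into the folate pool and is known chiefly from liver. It lies at 76575648 to 76590338 on chromosome 10. Ftcd was at 5.13, 5.22, 5.26, 5.24 and 5.30 in Dp3Yah mice, against 5.25, 5.31, 5.18, 5.27 and 5.25 in controls. The groups overlapped, with a difference of -0.02 (SE 0.042, limma adjusted p = 0.973). Its SD within groups, at the 13.1th percentile of all genes, was the smallest of the 7, at a signal below the median.

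Slc19a1 encodes the reduced folate carrier, which brings folate into cells, and lies at 77032269 to 77050432 on chromosome 10. It was the only 1 of the 7 with more than 1 single-gene probe set. The brighter probe set, which stands for the gene in all counts, was at 7.39, 7.02, 7.28, 7.28 and 7.40 in Dp3Yah mice, against 7.39, 7.44, 7.18, 7.37 and 7.44 in controls. The lowest Dp3Yah mouse, replicate 2, lay below every control. The difference was -0.09 (SE 0.074, 95% interval -0.25 to 0.07, limma adjusted p = 0.939), and it was -0.03 without that mouse.

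The dimmer probe set of Slc19a1, annotated to predicted transcript models of the gene, was at 5.93, 5.48, 5.66, 5.65 and 6.12 in Dp3Yah mice, against 5.92, 5.98, 5.97, 6.21 and 6.15 in controls. Of the Dp3Yah mice 3 lay below every control, and the other two lay within the range of the controls. The difference was -0.28, or 0.825-fold (SE 0.112, 95% interval -0.52 to -0.03), with an unadjusted p of 0.0299 that did not pass over all probe sets (limma adjusted p = 0.963). It was between -0.37 and -0.21 with any 1 mouse left out. With both probe sets averaged, the change of Slc19a1 was -0.18 (unadjusted p = 0.0468, limma adjusted p = 0.916). This probe set was singled out after its values were seen, and the difference between the probe sets was not tested.

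The 3 probe sets shared by Ahcy, the hydrolase that releases homocysteine from S-adenosylhomocysteine, and Gm4737 cannot be assigned to either gene. The brightest was at 7.96, 7.99, 7.86, 7.79 and 7.99 in Dp3Yah mice, against 7.98, 7.74, 7.74, 7.85 and 7.93 in controls, a difference of 0.07 (SE 0.061, limma adjusted p = 0.98 over all probe sets). The other two differed by 0.05 and 0.02. In all 3, the groups overlapped.

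Across mice the 7 genes did not vary as a block. Over the 21 pairs, Pearson's r of the deviations from the group means over the 10 mice ran from -0.58 (Mtr and Ftcd) to 0.73 (Cth and Shmt1), and for Cbs from -0.43 (Cth) to 0.59 (Mtr). These values are a description, since the mice share any difference in dissection. The 7 genes were also set against the mean of each of 8 lists of cell type markers. None of the 56 relations passed after Benjamini-Hochberg adjustment (lowest adjusted permutation p = 0.321 for r and 0.147 for rho, 100000 resamples). The resamples shuffled deviations from the group means freely over both groups, so these permutation p values are approximate. For Cbs and the astrocyte markers, r was 0.29 (permutation p = 0.418, adjusted p = 0.76) and rho 0.321 (permutation p = 0.368, adjusted p = 0.793), and r was 0.346 without the 2 mice farthest from the median of the markers. The largest r of Cbs was with dentate granule cell markers, at 0.704 (permutation p = 0.0229, adjusted p = 0.321). It was -0.118 without the 2 mice chosen likewise. The largest rho of Cbs was with endothelium markers, at 0.818 (permutation p = 0.00526, adjusted p = 0.147). There r was 0.553, and 0.751 without 2 such mice.

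The wider network of 1-carbon metabolism was described by 82 other listed genes, of which 76 were measured. Limma called 0 of the 76 (lowest adjusted p = 0.922). Their log2 changes ran from -0.14 (Chdh) to 0.22 (Cdo1), with a median of 0.02. With an unadjusted p under 0.05 there were 6, all higher in Dp3Yah mice, which is 7.89% of the list. Over all genes the share was 2.49% in that direction and 5.08% in either direction. No test over the list was made.

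**Figure D4:**
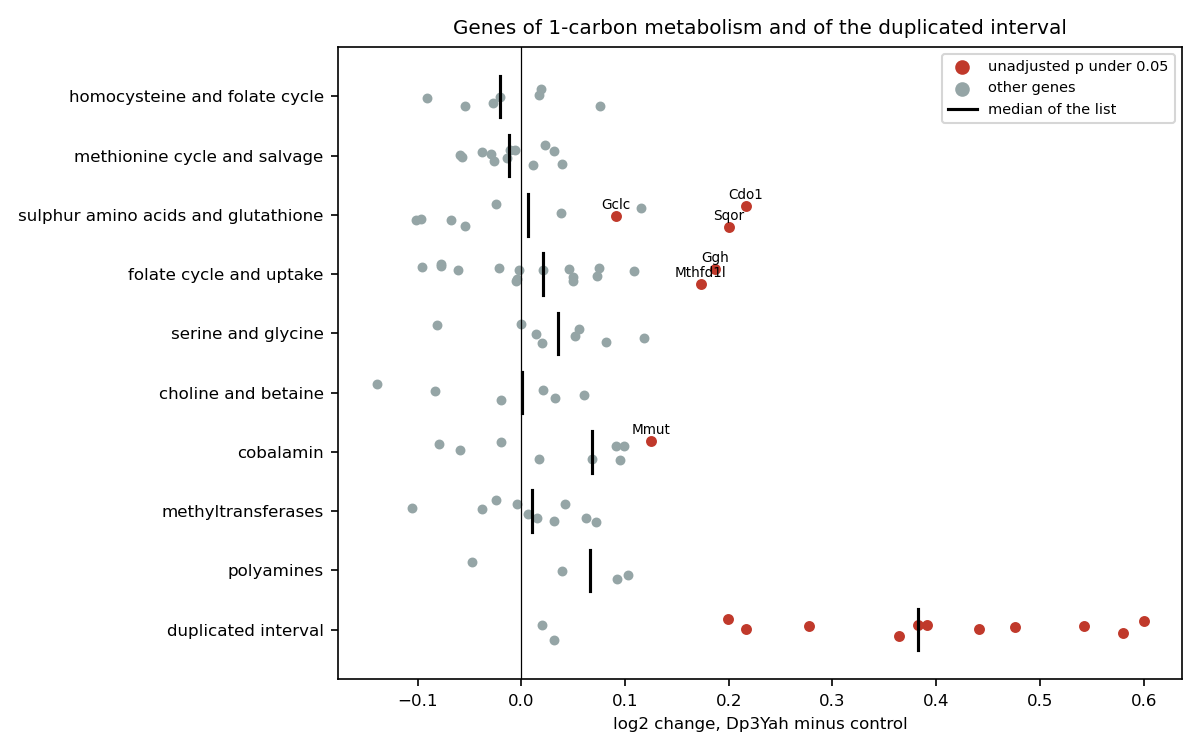
Log2 change (Dp3Yah minus control, horizontal axis) of each measured gene, by list, with the median of the list as a bar and genes with an unadjusted p under 0.05 in red. Outside the duplicated interval the 6 red genes are all positive, between 0.09 (Gclc) and 0.22 (Cdo1), and none passed after adjustment over all genes.

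Of these 6 genes, 3 belong to the handling of cysteine and sulphide downstream of Cbs, a list of 10 measured genes with a median change of 0.01. Cdo1, the cysteine dioxygenase that oxidises cysteine towards taurine, was at 7.56, 7.48, 7.51, 7.46 and 7.73 in Dp3Yah mice, against 7.33, 7.42, 7.35, 7.22 and 7.35 in controls. It was the only 1 of the 76 whose groups did not overlap, as 0.913% of all genes did. The difference was 0.22 (SE 0.056, unadjusted p = 0.00217, limma adjusted p = 0.922). Sqor, a mitochondrial enzyme that oxidises hydrogen sulphide, was at 6.78, 7.08, 6.92, 6.64 and 6.91 in Dp3Yah mice, against 6.80, 6.72, 6.62, 6.55 and 6.63 in controls, a difference of 0.20 (SE 0.075, limma adjusted p = 0.922). Gclc, the catalytic subunit of the first enzyme of glutathione synthesis, differed by 0.09, and its partner Gclm by 0.12, both without passing. Mpst (-0.10), Suox (-0.10), Tst (-0.07) and Gss (-0.05), which also handle sulphur or glutathione, had negative values that did not pass.

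In the folate cycle, with 17 of 20 listed genes measured and a median of 0.02, the mitochondrial enzyme Mthfd1l was 0.17 higher (SE 0.064, unadjusted p = 0.0193) and the folate hydrolase Ggh 0.19 higher (SE 0.085, unadjusted p = 0.0466). Both had a limma adjusted p of 0.922. Mthfd1l was at 6.24, 6.36, 6.39, 6.24 and 6.45 in Dp3Yah mice, against 6.22, 6.21, 5.95, 6.16 and 6.28 in controls, so that the lowest control, replicate 3, widened the gap. Without it the difference was 0.12. Mthfd1 (0.05), Shmt2 (0.05), Mthfd2 (-0.06) and Tyms (0.05) had smaller values.

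The folate receptor Folr1, known in the brain from the choroid plexus, differed widely between mice and not between groups. It was chosen after its values were seen. Folr1 was at 7.07, 7.73, 6.47, 6.26 and 7.66 in Dp3Yah mice, against 7.81, 6.24, 6.41, 6.56 and 8.19 in controls, a span of 3.87-fold and an SD at the 99.96th percentile of all genes. The difference was -0.002, with a 95% interval of -0.87 to 0.87 that covers a 1.5-fold change in either direction. The choroid plexus marker Ttr, which encodes transthyretin, was at 12.68, 13.04, 9.62, 9.37 and 13.40 in Dp3Yah mice, against 13.25, 8.99, 10.17, 10.29 and 13.33 in controls. The same 5 mice, Dp3Yah replicates 1, 2 and 5 and control replicates 1 and 5, were high for both genes. The 9 measured choroid plexus markers, Folr1 among them, averaged 6.14 to 7.90 in Dp3Yah and 6.06 to 8.01 in control mice. The carrier Slc46a1, which takes up folate at acid pH, differed by -0.01.

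Among 9 genes of cobalamin handling, with a median of 0.07, methylmalonyl-CoA mutase Mmut was 0.12 higher (SE 0.057, unadjusted p = 0.0471, limma adjusted p = 0.922). The methionine cycle and salvage (12 genes, median -0.01), serine and glycine metabolism (8 genes, 0.04), choline and betaine (6 genes, 0.001), methyltransferases (10 genes, 0.01) and polyamines (4 genes, 0.07) held no gene with an unadjusted p under 0.05. The lowest values of p there belonged to the betaine-homocysteine methyltransferases Bhmt (-0.06) and Bhmt2 (-0.06), the serine phosphatase Psph (-0.08), the glycine cleavage component Dld (0.12), the dehydrogenases Dmgdh (-0.08) and Chdh (-0.14), the DNA methyltransferase Dnmt1 (-0.11), the histamine methyltransferase Hnmt (0.07), and Sat1 (0.10) and Odc1 (0.09) of polyamine turnover.

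Limma called no marker in any of the cell type lists. Microglia markers, of which 7 of 8 were measured, averaged 7.782 to 7.983 in Dp3Yah and 7.658 to 7.780 in control mice. Every Dp3Yah mouse therefore lay above every control in this list mean, the closest narrowly, and the difference in the mean was not tested. All 7 changes were positive, 4 of them at an unadjusted p under 0.05, as 2.49% of all genes were in that direction (lowest limma adjusted p = 0.922). For 1 of the 7, Itgam, the groups did not overlap, as for 0.522% of all genes in that direction. The 8 markers of meninges and fibroblasts averaged 6.95 to 7.21 in Dp3Yah and 6.99 to 7.12 in control mice. The part of either cell type in the values of Cdo1, Sqor, Mthfd1l, Ggh, Gclc or Mmut was not tested. Markers of dentate granule cells averaged 7.77 to 8.05 in Dp3Yah and 7.91 to 8.16 in control mice. Those of pyramidal cells averaged 8.89 to 9.27 in Dp3Yah and 8.93 to 9.11 in control mice. In every mouse both list means lay above the median level of all genes (6.38), though without a detection call. Of the 10 dentate markers 7 had negative changes, with a list median of -0.16 (lowest limma adjusted p = 0.708). An unadjusted p under 0.05 was reached by 3 of these, as by 2.59% of all genes in that direction. For 1 of the 10, C1ql2, the groups did not overlap, as for 0.391% of all genes in that direction. The part of dentate granule cells in the values of Cdo1, Sqor, Mthfd1l, Ggh, Gclc or Mmut was not tested either.

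Of the genes of these pathways whose human counterparts lie on chromosome 21, 6 were measured, all in equal copy number in both groups. Besides Cbs, Slc19a1 and Ftcd these were Gart, a trifunctional enzyme of purine synthesis that uses folate, Prmt2, a protein arginine methyltransferase, and N6amt1, a methyltransferase. Gart and N6amt1 lie on chromosome 16, as the duplication does, but beyond it. Gart was at 8.15, 8.08, 8.07, 8.11 and 8.04 in Dp3Yah mice, against 8.05, 7.99, 8.03, 7.96 and 8.05 in controls. Of the Dp3Yah mice 4 lay above every control, and the difference was 0.07 (SE 0.038, 95% interval -0.01 to 0.16, limma adjusted p = 0.922). Prmt2 (0.02) and N6amt1 (0.06) did not pass either. All 6 intervals lay within a 1.2-fold difference, for Slc19a1 by its brighter probe set only, and 3 of the 6 changes were positive.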

How the data were processed

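The deposited values are log2 signals of 35556 probe sets in 10 hippocampus samples, 1 array a mouse. The authors made them with RMA (background correction, normalisation of the arrays, summary of probes), per the labels with limma and the mm10 build, in versions not given in the sources used here. Array medians lay between 5.64 and 5.71. No depth applies to arrays, whose number limits the precision.

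The platform annotation, which can be old, gave 1 gene to 21789 probe sets, several to 1621, and 12146 stayed unnamed here. A gene was represented by its single-gene probe set with the highest mean. Symbols and coordinates came through gene identifiers from RefSeq (GRCm38.p6), which held 19856 of 19939 genes. Groups and replicate numbers came from the titles. The groups were tested against each other by limma 3.58.1 under R 4.3.3 (lmFit and eBayes without covariates, two-sided, Benjamini-Hochberg adjusted over all genes, threshold 0.05). Intervals are at the 95% level and hold for 1 gene at a time. The study's rank test (FCROS) was rewritten (trim 0.25, f under 0.025 or over 0.975) and is an alternative. The scripts were tested on simulated data.

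The genes and lists were chosen with earlier results of these data known. The text names every measured gene of the 2 cycles and all listed homologues of human chromosome 21. From each other pathway list it names the genes with an unadjusted p under 0.05, or else the 2 with the smallest p. It also names the 5 genes closest to Cbs. Cell type markers are given as lists. Other genes are named as examples of a list. Alternatives tried were the rank test, leaving out each mouse, weighting the arrays, component 1 as covariate, a robust variance with a trend, quantile normalisation, centring on medians, dropping dim genes, all or averaged probe sets, and a replicate block. The replicate numbers were not used as pairs in the main comparison, and whether they pair the mice was not tested.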

Additional observations from a re-analysis of the deposited data

Results flagged for a closer look

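Of 60 groups of 5 mice checked for a value far from the rest (Dixon's ratio above 0.71), 1 was flagged, and chance alone flags about 1 in 20. The brighter Slc19a1 probe set was at 7.18 in control replicate 3, against 7.37 to 7.44 in the other controls (ratio 0.744).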

How the results depend on the processing

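Under no alternative did limma call any of the 7 genes. With any 1 mouse left out, the log2 change ran from -0.129 to 0.0128 for Cbs, -0.0363 to 0.0503 for Mtr, -0.0616 to 0.0630 for Mtrr, -0.0391 to 0.00356 for Ftcd, -0.0124 to 0.0506 for Prmt2, -0.0162 to 0.115 for N6amt1 and -0.00311 to 0.0409 for the third probe set of Ahcy and Gm4737. These ranges span 0, so that no direction is given for these genes. After quantile normalisation Ftcd was at 0.000901, and the rank test gave Mtrr an f of 0.499. Signs of Cth, Shmt1 and Slc19a1 held in all settings run. Genes below the median level (Cth, Mtr, Mtrr, Shmt1 and Ftcd) gave no value under that filter.

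The count of genes called, 3 over all genes, was 1 when every probe set was tested, 6 with a trended and robust variance, 5 with array weights, 5 with component 1 as covariate and 915 by the rank test; it ran from 1 to 4 with 1 mouse left out. Leaving out control replicate 3, 4 or 5, or else Dp3Yah replicate 4, left 1 gene called. Of the 76 wider 1-carbon genes, 5 (6.58%) passed the rank test, against 4.59% of all genes: Sqor (f of 0.993), Cdo1 (0.994), Mthfd1l (0.989), Ggh (0.985) and the folate enzyme Aldh1l1 (0.98).

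With the replicate number as a block, 3 genes were called and Cbs was at -0.05 (limma adjusted p = 0.964), and none of the named pathway genes was called, as without the block. Same-numbered mice did not deviate together in every pair (correlations -0.36 to 0.32 over genes), and 4 of 10 arrays correlated best with their own number. With 5 mice a group, a 95% interval had a median width of 0.12 to either side, and no detection call separates dim probe sets from background. The alternatives for further probe sets of Slc19a1 and Ahcy were chosen after seeing the data.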
